A study of Mus musculus with 4 samples.

Results

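Transcripts of 10 ligands of the tumour necrosis factor (TNF) superfamily were compared between PLZF+ and PLZF- γδ T cells from mouse epididymal fat. The ligands were Ltb, Tnf, Lta, Tnfsf11, Fasl, Tnfsf10, Tnfsf8, Tnfsf9, Cd40lg and Tnfsf14, taken by symbol from the deposited tables, and they were 10 of 44933 named genes. The tables list them in capitals as LTB, TNF, LTA, TNFSF11, FASL, TNFSF10, TNFSF8, TNFSF9, CD40LG and TNFSF14, each in 1 row. PLZF is a transcription factor, the product of Zbtb16, and γδ T cells are lymphocytes whose antigen receptor is made of γ and δ chains. Both groups came from male C57Bl/6 mice aged 16 to 22 weeks that carried a GFP reporter of PLZF (PLZFGFP mice), and the labels separate them by the sort on this reporter alone. The PLZF+ group had 2 libraries, A7 and B7, and the PLZF- group had 2, A6 and B6. Each library was a pool of 10 mice, and the labels explain neither the codes nor whether a PLZF+ and a PLZF- library shared mice. Libraries were made by SMART-seq2, which copies whole transcripts from few cells. The sources used here do not give the antibodies or gates.

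TNF superfamily ligands are mostly made as membrane proteins that act as trimers, and some are cut from the surface by proteases. Their receptors either carry a death domain and can start apoptosis, as Fas and the TRAIL receptors do, or recruit TRAF adaptors and signal through NF-κB for survival, co-stimulation or the building of lymphoid tissue. In fat, TNF is known for its part in inflammation and insulin resistance.

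The libraries held an estimated 1837511 and 2035066 reads in PLZF+ cells (A7, B7) and 744569 and 981885 in PLZF- cells (A6, B6), without the rRNA precursor Rn45s. One read was worth 0.619 and 0.558 normalized counts in the PLZF+ libraries, against 1.69 and 1.22 in the PLZF- libraries, so low genes were measured less finely in PLZF- cells. Zbtb16 had 2899 and 2921 normalized counts in the PLZF+ libraries, against 310 and 699 in the PLZF- libraries, which checks the sort. Listed markers of the labelled cell type were present in all 4 libraries but unevenly. The γδ T cell markers summed to 5263 and 5741 normalized counts in the PLZF+ libraries, against 1232 and 1771 in the PLZF- libraries, and 6 of 6 tested loci rose in PLZF+ cells (7 of 12 listed symbols were matched, Trdc not among them). Of these sums, the locus that holds Tcrg-V5 and Tcrg-V6 gave 2511 and 2835 in the PLZF+ libraries, against 440 and 488 in the PLZF- libraries. The share of γδ T cells in a library was not measured. Natural killer cell markers summed to 295 and 307 in the PLZF+ libraries, against 4695 and 4206 in the PLZF- libraries, and those of group 2 innate lymphoid cells to 349 and 230 in the PLZF+ libraries, against 4498 and 3336 in the PLZF- libraries.

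Of the 10 ligands, 2 rose and 1 fell in PLZF+ cells. A gene was called where its adjusted p was under 0.05 by limma, fitted to log2(normalized count + 1) of all 8978 genes with a mean of at least 10 normalized counts. Of those genes 2.52% rose and 4.72% fell. Without library A7 or B7, where far fewer of all genes rose, no ligand did, and Fasl still fell. Without A7, Lta lay below the filter. Ltb, which encodes lymphotoxin β, and Tnfsf11, which encodes RANKL, were higher in PLZF+ cells. Fasl, which encodes the death ligand of the receptor Fas, was nearly absent from PLZF+ cells and was among the most abundant ligand transcripts of PLZF- cells. The other 7 did not pass: the values of Tnf and Lta lay higher in PLZF+ libraries, and those of Tnfsf10, Tnfsf8, Tnfsf9, Cd40lg and Tnfsf14 lay lower. All 10 passed the filter, and the libraries of the subsets overlapped for none of them, 4 lying above and 6 below in PLZF+ cells, where 24.2% of tested genes lay above and 26.9% below (51.1% in all). The median log2 fold change (PLZF+ over PLZF-) was -0.85 for the ligands and -0.021 for all tested genes. In bulk libraries, fewer cells of a type and less RNA per cell cannot be told apart.

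**Figure D1:**
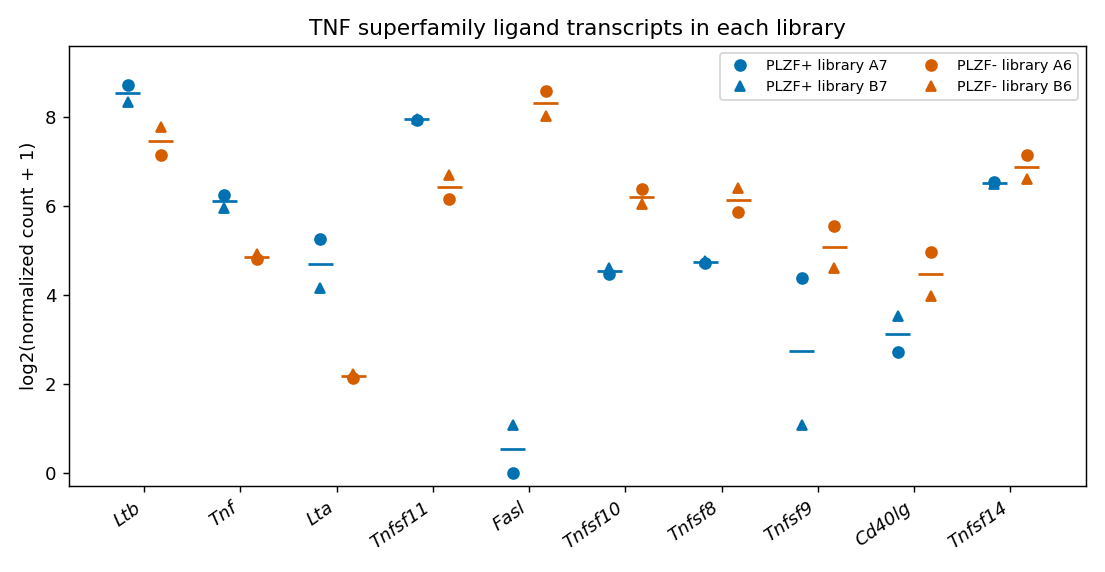
Level of each ligand in each library, as log2(normalized count + 1) on the y axis. Circles and triangles are single libraries (PLZF+ blue and on the left, PLZF- orange and on the right) and lines are means of 2 libraries. The subsets do not overlap for any of the 10 ligands, Fasl lies at 0 and 1.12 normalized counts in PLZF+ libraries, and Tnfsf14 has the closest groups.

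The promoters of the 3 called ligands are shown because Ltb and Tnfsf11 moved one way and Fasl the other. Each sequence is the 250 bases before the start of the gene in RefSeq (GRCm38.p6), 5′ to 3′ on the strand of the gene. Capitals mark matches on either strand to 5 motifs: GGG and CC with a spacer of 5 bases (NF-κB), GGAAAA (NFAT), TGANTCA (AP-1), TCACACCT (T-box) and TTCNNNGAA (STAT). Ltb lies on the plus strand, with its window at chr17:35194257-35194506. The deposited locus starts at 35194427, so the later part of the window falls within it. Tnfsf11 lies on the minus strand, at chr14:78308044-78308293, and so does Fasl, at chr1:161788496-161788745.
Ltb promoter: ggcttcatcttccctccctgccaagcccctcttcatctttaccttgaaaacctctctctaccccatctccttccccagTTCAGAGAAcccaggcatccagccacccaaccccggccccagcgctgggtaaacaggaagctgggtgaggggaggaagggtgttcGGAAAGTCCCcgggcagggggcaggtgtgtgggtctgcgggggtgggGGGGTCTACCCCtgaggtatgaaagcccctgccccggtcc
Tnfsf11 promoter: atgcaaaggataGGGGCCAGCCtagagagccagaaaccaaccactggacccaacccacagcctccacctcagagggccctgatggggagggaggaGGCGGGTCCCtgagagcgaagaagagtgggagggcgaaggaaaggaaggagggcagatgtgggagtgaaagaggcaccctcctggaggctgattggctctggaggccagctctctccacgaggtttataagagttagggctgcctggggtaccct
Fasl promoter: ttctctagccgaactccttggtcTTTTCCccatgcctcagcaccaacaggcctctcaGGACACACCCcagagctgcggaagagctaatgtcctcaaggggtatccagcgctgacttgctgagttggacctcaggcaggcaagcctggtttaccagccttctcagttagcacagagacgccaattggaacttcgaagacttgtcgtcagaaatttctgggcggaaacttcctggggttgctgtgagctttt

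The Ltb window held 4 matches to the NF-κB motif. One lay 87 to 78 bases before the start, and the other 3 overlapped each other in a run between 40 and 29 bases before it. These 3 fall within the deposited locus of Ltb, and the first crosses its edge. The window also held 1 STAT match. The Tnfsf11 window held 2 NF-κB matches, and the Fasl window held 1 NF-κB match and 1 NFAT match. The NF-κB motif is loose: 45.8% of 32817 RefSeq windows of this length held it, against 20.4% for NFAT, 7.01% for STAT, 6.75% for AP-1 and 1.12% for T-box. RefSeq windows were at hand for 8 of the 10 ligands, and not for Tnfsf9 and Cd40lg. Among the other 5, Tnf held 1 NF-κB and 2 NFAT matches, Lta 2 overlapping NF-κB and 2 STAT matches, and Tnfsf14 4 NF-κB matches (2 of them overlapping) and 1 AP-1 match. Tnfsf8 and Tnfsf10 held no match, and no window of the 8 held the T-box letters. The windows of Lta, Tnfsf8 and Tnfsf10 also reach into their deposited loci. A match is a run of letters and not a measured binding site.

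Lymphotoxin and TNF genes lie together on chromosome 17, where Ltb, Tnf and Lta span 11.1 kb of mm10 within the major histocompatibility complex. Ltb encodes a membrane protein that anchors lymphotoxin α in a complex that acts on the lymphotoxin β receptor, a signal for lymphoid tissue. Ltb (chr17:35194427-35196305) had 422 and 323 normalized counts in the PLZF+ libraries A7 and B7, against 140 and 220 in the PLZF- libraries A6 and B6. Both PLZF+ libraries lay above both PLZF- libraries, and the narrowest gap between subsets (323 against 220) was about as wide as the gap between the libraries of a subset. Its log2 fold change was 1.07 ± 0.29 (SE, 95% interval 0.45 to 1.69, adjusted p = 0.040 by limma). Where libraries were scaled to their CD3 transcripts, which moved the median of all tested genes to -1.34, it was -0.27 (adjusted p = 0.70 by limma). The call was lost without A7 (adjusted p = 0.46), without B7 (0.21) or without A6 (0.14), and the log2 fold change without A6 was 0.75. In the authors' deposited table Ltb was higher with a q-value of 0.0159, where 1.82% of loci with a test were higher.

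Tnf encodes TNF, the inflammatory cytokine that acts on TNF receptors 1 and 2. Tnf (chr17:35199367-35202007) had 75.6 and 61.4 normalized counts in the PLZF+ libraries, against 27.0 and 29.3 in the PLZF- libraries, from 122, 110, 16 and 24 reads. The PLZF+ values lay above the PLZF- values in both libraries, but Tnf did not pass (log2 fold change 1.25 ± 0.49, 95% interval 0.18 to 2.31, adjusted p = 0.17 by limma). Under the CD3 scaling, where the median of all tested genes was -1.34, its log2 fold change was -0.070. Lta encodes lymphotoxin α, which is secreted as a homotrimer that binds the TNF receptors or is held at the membrane by lymphotoxin β. Lta (chr17:35203165-35205528) had 37.2 and 16.7 normalized counts in the PLZF+ libraries, against 3.37 and 3.66 in the PLZF- libraries. The PLZF+ values rest on 60 and 30 reads and the PLZF- values on 2 and 3, and Lta did not pass (log2 fold change 2.53 ± 1.06, 95% interval 0.24 to 4.81, adjusted p = 0.20 by limma). In the authors' deposited table the q-values of Tnf and Lta were 0.241 and 0.204.

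Levels per length, in FPKM, put the transcripts of the cluster in the same order in every library, Ltb first, Tnf next and Lta last. The Ltb to Tnf ratio of FPKM values was 10.0 and 9.75 in the PLZF+ libraries, against 8.96 and 12.96 in the PLZF- libraries, so the PLZF- values enclosed those of PLZF+ cells. The Ltb to Lta ratio was 16.3 and 31.6 in the PLZF+ libraries, against 57.1 and 82.5 in the PLZF- libraries, where it rests on 5 Lta reads in all. Within 50 kb of the cluster, by the nearest edge of the deposited coordinates, lay 24 other entries. Of these 7 were tested, and by limma 0 rose and 1 fell, where 2.52% of all tested genes rose and 4.72% fell. At an unadjusted p under 0.05 the counts were 1 and 1, and by voom 0 and 1. The locus that fell holds Ddx39b and H2-Q genes. It shares the merged coordinates chr17:35241746-35443773 with several other entries, so their genes can lie farther than 50 kb away. Bag6, a chaperone gene on the Ltb side, had 87.3 and 77.0 normalized counts in the PLZF+ libraries, against 21.9 and 52.4 in the PLZF- libraries, and did not pass (log2 fold change 1.25, adjusted p = 0.19 by limma).

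RANKL, the product of Tnfsf11, acts on the receptor RANK and is known for osteoclast formation and for lymph node and thymic medulla development. Tnfsf11 (chr14:78277446-78308043) had 244 and 249 normalized counts in the PLZF+ libraries, against 70.9 and 102 in the PLZF- libraries. The PLZF+ libraries were nearly equal and lay well above both PLZF- libraries. The log2 fold change was 1.52 ± 0.32 (SE, 95% interval 0.83 to 2.22, adjusted p = 0.011 by limma). It was 0.18 (adjusted p = 0.80 by limma) under the CD3 scaling, where the median of all tested genes was -1.34. Leaving out A7 or B7 kept the size (1.54 and 1.51) and ended the call (adjusted p = 0.15 and 0.19). In the authors' deposited table Tnfsf11 was higher with a q-value of 0.0181.

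Fas ligand is a death ligand of cytotoxic lymphocytes that acts on Fas. Fasl (chr1:161780692-161788495) had 0 and 1.12 normalized counts in the PLZF+ libraries, against 385 and 261 in the PLZF- libraries. These values rest on 0 and 2 reads in the PLZF+ libraries, against 228 and 214 in the PLZF- libraries, so the transcript was at the limit of detection in the deeper libraries and plain in the shallower ones. Fasl was 533-fold lower in PLZF+ cells (95% counting interval 147 to 4414, counting error only). The log2 fold change on the log2(normalized count + 1) scale, which understates such a difference, was -7.77 ± 0.71 (SE, 95% interval -9.30 to -6.24, adjusted p = 2.6e-05 by limma). It was called whichever library was left out and in every other setting tried, with adjusted p of at most 0.016. The authors' deposited table gave Fasl a q-value of 0.607, so its test did not call the gene.

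The natural killer cell markers moved with Fasl: all 11 tested loci of the list fell in PLZF+ cells, and 5 of its 12 loci were at 0 in both PLZF+ libraries (Klre1, a Klra locus, Eomes, Gzma and Samd3). Ncr1, which encodes an activating receptor of such cells, stood at 3.72 and 3.91 normalized counts in the PLZF+ libraries, against 693 and 694 in the PLZF- libraries. The part of such cells in the difference was not tested. Tnfsf4 and Tnfsf18 lie beside Fasl on chromosome 1, within 393 kb. Tnfsf4, which encodes the co-stimulatory OX40 ligand, had 0 normalized counts in both PLZF+ libraries and 16.9 and 26.8 in PLZF- libraries, at least 12.4-fold lower in PLZF+ cells against a floor of 3 reads per library. It did not pass (adjusted p = 0.18 by limma), was called on FPKM (0.039) and without the trend and robust steps (0.016), and was lower in the authors' deposited table (q-value 0.00191). Tnfsf18 had at most 3.35 normalized counts in any library. Of the 3 other loci within 50 kb of this stretch 2 were tested, and 0 were called by limma or voom (1 at an unadjusted p under 0.05).

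TRAIL, the product of Tnfsf10, binds death receptors and decoys. Tnfsf10 (chr3:27317061-27342427) had 21.1 and 23.4 normalized counts in the PLZF+ libraries, against 82.7 and 64.6 in the PLZF- libraries. The subsets stood well apart relative to the spread within each, but the adjusted p by limma was 0.073 (log2 fold change -1.67 ± 0.51, 95% interval -2.78 to -0.57). On FPKM the values were 2.48 and 2.77 in the PLZF+ libraries, against 14.2 and 17.1 in the PLZF- libraries, and the gene passed there (log2 fold change -2.20, adjusted p = 0.049). In the authors' deposited table it was lower with a q-value of 0.0379, where 3.91% of loci with a test were lower. The FPKM and count scales differ for Tnfsf10, where 1 FPKM stood for 8.48 and 8.45 normalized counts in PLZF+ libraries and for 5.81 and 3.77 in PLZF- libraries.

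Tnfsf8, Tnfsf9 and Cd40lg encode the co-stimulatory ligands of CD30, CD137 and CD40. Tnfsf8 (chr4:63831308-63861347) had 25.4 and 26.2 normalized counts in the PLZF+ libraries, against 57.4 and 84.2 in the PLZF- libraries (log2 fold change -1.39 ± 0.51, adjusted p = 0.14 by limma). Cd40lg (chrX:57212143-57224042) had 5.57 and 10.6 normalized counts in the PLZF+ libraries, against 30.4 and 14.6 in the PLZF- libraries (log2 fold change -1.34 ± 0.90, adjusted p = 0.45 by limma). Neither passed, and the interval of Cd40lg, -3.30 to 0.62, includes 0. Tnfsf9 (locus chr17:57080066-57107757) had 19.8 and 1.12 normalized counts in the PLZF+ libraries, against 45.5 and 23.2 in the PLZF- libraries, from 32, 2, 27 and 19 reads. The PLZF+ library B7 stood far below A7, and the difference turned on it: the log2 fold change was -2.34 ± 1.07 (adjusted p = 0.24 by limma), -3.99 without A7 and -0.69 without B7. The deposited locus of Tnfsf9 shares its coordinates with that of Tubb4a, and the sources used here do not give the strand setting of the counting.

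LIGHT, the product of Tnfsf14, acts on HVEM and on the lymphotoxin β receptor. Tnfsf14 (chr17:57189474-57194181) had 91.7 and 89.8 normalized counts in the PLZF+ libraries, against 140 and 96.3 in the PLZF- libraries. The highest PLZF+ value was close to the lowest PLZF- value, and Tnfsf14 did not pass (log2 fold change -0.35 ± 0.36, 95% interval -1.14 to 0.43, adjusted p = 0.64 by limma). Tnfsf9, Cd70 and Tnfsf14 lie within 114 kb on chromosome 17, and of the 10 other loci within 50 kb of them 4 were tested and 0 were called by limma, by voom or at an unadjusted p under 0.05. Cd70 was listed at 0 in all 4 libraries.

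**Figure D2:**
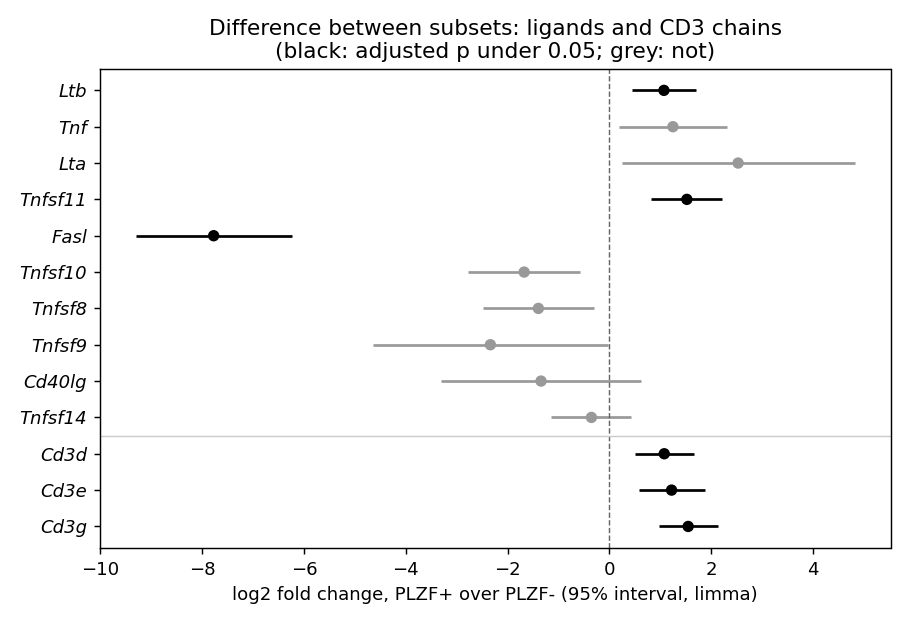
Log2 fold change of each ligand and of the 3 CD3 chains, PLZF+ over PLZF-, on the x axis, with 95% intervals from limma. Black marks an adjusted p under 0.05: Fasl lies at -7.77, and Ltb (1.07) and Tnfsf11 (1.52) lie close to Cd3d (1.08), Cd3e (1.22) and Cd3g (1.55). Scaled to the CD3 chains (not drawn), Ltb lies at -0.27 and Tnf at -0.070, where the median of all tested genes is -1.34.

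Ltb led the ligand transcripts of PLZF+ cells, and Ltb and Fasl those of PLZF- cells. The FPKM of the 10 ligands summed to 482 and 396 in the PLZF+ libraries, against 365 and 378 in the PLZF- libraries, and shares of this sum are given as a description, with no test. Ltb made up 63.0% ± 1.22 of the sum in PLZF+ cells and 34.5% ± 10.2 in PLZF- cells (SD, n = 2 each). Tnfsf11 made up 16.2% ± 2.56 in PLZF+ cells and 6.68% ± 1.59 in PLZF- cells. Together these transcripts formed most of the ligand pool of PLZF+ cells. Fasl made up 0.049% ± 0.070 of the sum in PLZF+ cells and 26.6% ± 6.45 in PLZF- cells. Tnf made up 6.36% ± 0.0048 in PLZF+ cells and 3.13% ± 0.12 in PLZF- cells. Tnfsf10 made up 0.61% ± 0.13 in PLZF+ cells and 4.21% ± 0.45 in PLZF- cells, and Tnfsf9 1.30% ± 1.60 in PLZF+ cells (2.43% in A7 and 0.17% in B7) and 5.65% ± 2.69 in PLZF- cells. The shares of Tnfsf8 were 1.16% ± 0.17 in PLZF+ cells and 3.75% ± 1.82 in PLZF- cells, and those of Cd40lg 1.12% ± 0.64 in PLZF+ cells and 3.62% ± 1.85 in PLZF- cells. Tnfsf14 made up 7.33% ± 0.97 in PLZF+ cells and 11.3% ± 3.19 in PLZF- cells.

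**Figure D3:**
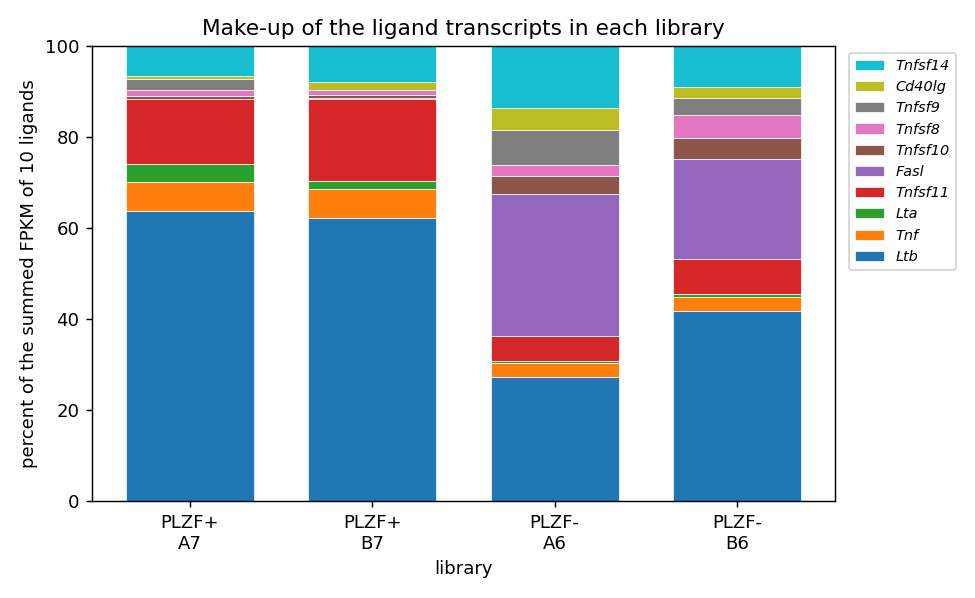
Percent of the summed FPKM of the 10 ligands taken by each (y axis) in each library (x axis, PLZF+ A7 and B7, then PLZF- A6 and B6). Ltb and Tnfsf11 fill most of the bar in PLZF+ libraries, and Fasl takes 26.6% on average in PLZF- libraries and next to nothing in PLZF+ libraries.

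Ordered by FPKM, PLZF+ cells had Ltb (308 and 246), Tnfsf11 (69.2 and 71.2), Tnfsf14 (32.1 and 31.8) and Tnf (30.7 and 25.2) at the top, each apart from its neighbour in both libraries. Lta, Tnfsf9, Tnfsf8 and Cd40lg followed, with ranges that overlapped from each to the next, Tnfsf10 (2.48 and 2.77) lay within the range of Tnfsf9 (11.7 and 0.673), and Fasl (0 and 0.390) came last and apart. In PLZF- cells Ltb (99.7 and 158) and Fasl (114 and 83.4) shared the top, with overlapping ranges, and Fasl stood above Ltb in A6. Tnfsf14 (49.7 and 34.3) was next and apart from its neighbours. Tnfsf11, Tnfsf9, Tnfsf10, Tnfsf8, Cd40lg and Tnf then followed with overlapping neighbours, and Lta (1.75 and 1.91) was last and apart. Fasl thus was last in PLZF+ cells and next to Ltb at the top in PLZF- cells.

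The CD3 chains, which every T cell carries on its surface, also rose in PLZF+ cells, by amounts close to those of Ltb and Tnfsf11. Cd3d, Cd3e and Cd3g together had 1802 and 1936 normalized counts in the PLZF+ libraries, against 552 and 977 in the PLZF- libraries (log2 fold changes 1.08, 1.22 and 1.55, adjusted p = 0.028, 0.025 and 0.0031 by limma). Without A7 or B7 none of the 3 passed (adjusted p = 0.069 to 0.37), and without A6 neither Cd3d nor Cd3e did (0.071 and 0.083). For every 100 CD3 counts, Ltb had 23.4 and 16.7 normalized counts in the PLZF+ libraries, against 25.4 and 22.5 in the PLZF- libraries. Tnfsf11 had 13.5 and 12.9 in the PLZF+ libraries, against 12.8 and 10.5 in the PLZF- libraries on the same scale, and Tnf had 4.19 and 3.17 in the PLZF+ libraries, against 4.89 and 2.996 in the PLZF- libraries. Relative to CD3, the subsets thus overlapped for Ltb and Tnf and nearly met for Tnfsf11. Fasl had 0 and 0.058 per 100 CD3 counts in the PLZF+ libraries, against 69.7 and 26.7 in the PLZF- libraries, and Tnfsf10 had 1.17 and 1.21 in the PLZF+ libraries, against 15.0 and 6.62 in the PLZF- libraries. Lta alone kept higher values in both PLZF+ libraries beyond a small margin, 2.06 and 0.865, against 0.612 and 0.375 in PLZF- libraries.

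Scaling each library to its CD3 counts, a setting chosen after seeing the data, moved the median log2 fold change of all genes to -1.34, and 0.568% of tested genes then rose and 36.2% fell. Under it 0 of the 10 ligands rose and 6 fell: Fasl, Tnfsf10 (log2 fold change -2.99), Tnfsf8 (-2.71), Tnfsf9 (-3.51), Cd40lg (-2.60) and Tnfsf14 (-1.69). The scaling shifts all genes of a library together, so it cannot tell fewer T cells from less CD3 RNA per cell. How much of the difference in any ligand goes with the share of T cell transcripts in a library was not tested.

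**Figure D4:**
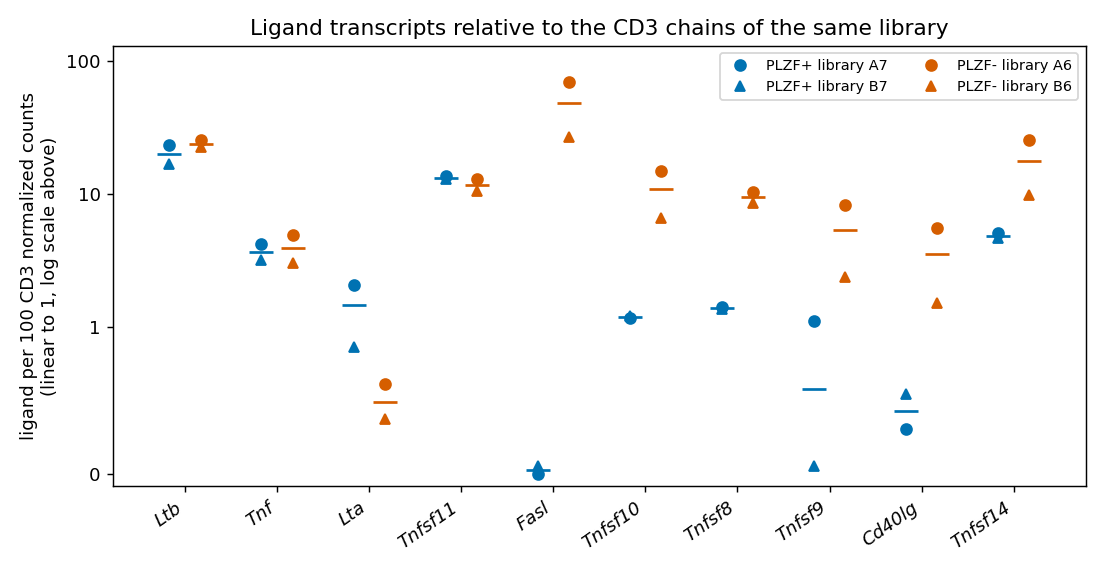
Normalized counts of each ligand per 100 normalized counts of Cd3d, Cd3e and Cd3g in the same library (y axis, linear up to 1 and logarithmic above). Circles and triangles are single libraries (PLZF+ blue and on the left, PLZF- orange and on the right) and lines are means. On this scale the subsets overlap for Ltb and Tnf and nearly meet for Tnfsf11. Lta lies higher in PLZF+ libraries, and Fasl, Tnfsf10, Tnfsf8, Tnfsf9, Cd40lg and Tnfsf14 lie lower. With libraries scaled to CD3, the median log2 fold change of all tested genes was -1.34, and 36.2% of these genes fell.

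Other cells that can express these ligands left transcripts as well. The list for group 3 innate lymphoid and lymphoid tissue inducer cells, which are known for lymphotoxin and RANKL, summed to 2770 and 2953 normalized counts in the PLZF+ libraries, against 2230 and 2462 in the PLZF- libraries. The largest part was Il7r, with 1626 and 1957 in PLZF+ libraries, against 1156 and 1277 in PLZF- libraries, and it was not called. Of 5 tested loci 2 rose and 2 fell, and Il22 and Cxcr5 were at 0 in all 4 libraries. The 2 that fell were Ncr1, also on the natural killer cell list, and the Kit locus. Kit had 18.0 and 12.3 in PLZF+ libraries, against 278 and 248 in PLZF- libraries. For group 2 innate lymphoid cells 7 of 7 tested loci fell in PLZF+ cells, and for plasmacytoid and other dendritic cells 7 of 12 fell, with sums of 206 and 89.3 in the PLZF+ libraries, against 2207 and 1076 in the PLZF- libraries. Of the B and plasma cell list 1 of 2 tested loci fell, IGJ (the immunoglobulin joining chain), with 0 normalized counts in both PLZF+ libraries, against 584 and 257 in the PLZF- libraries. Cd79b had 33.4 and 29.6 in the PLZF+ libraries, against 1.69 and 7.32 in the PLZF- libraries, and was not called, and Ms4a1, Cd79a and Pax5 were at 0 in all 4. The αβ T cell list summed to at most 60.7 in any library, the macrophage list to at most 41.5 and the list of stromal, endothelial and fat cells to at most 162. Of these lists 1, 0 and 1 loci reached the filter, and 0 were called by limma, by voom or at an unadjusted p under 0.05. The αβ list matched 5 of 8 symbols, without Trac, Trbc1 and Trbc2, so it held no gene of the αβ receptor. Its Cd4, Cd8a and Cd8b1 were at 0 in both PLZF+ libraries. In the PLZF- libraries A6 and B6 they had 13.5 and 4.88, 11.8 and 1.22, and 1.69 and 14.6 in that order. The subsets overlapped for Foxp3 and for Cd5, which had 52.6 and 16.2 in PLZF+ libraries, against 33.7 and 11.0 in PLZF- libraries. The part of these cells in the ligand values was not tested.

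Of 13 listed receptors and decoys 8 were tested, and 0 rose and 1 fell by limma, by voom and at an unadjusted p under 0.05. Among all tested genes, 2.52% rose and 4.72% fell by limma. The median log2 fold change of the 8 tested receptors and decoys was -0.31. The receptor that fell was Tnfrsf9 (CD137), the receptor of the Tnfsf9 product and a marker of lymphocyte activation. It had 21.7 and 24.0 normalized counts in the PLZF+ libraries, against 99.5 and 93.9 in the PLZF- libraries (log2 fold change -2.04 ± 0.47, adjusted p = 0.019 by limma), and the call was lost without A7 (adjusted p = 0.15), B7 (0.14) or A6 (0.067), without a filter (0.058) and without the trend and robust steps (0.079). Tnfrsf1b, which encodes TNF receptor 2, was the most abundant receptor by FPKM, with 152 and 105 in the PLZF+ libraries, against 118 and 103 in the PLZF- libraries. Its overlapping groups gave a log2 fold change of 0.20 (-0.057 without A7), and Tnfrsf1a, which encodes TNF receptor 1, gave 0.48 (154 and 112 normalized counts in PLZF+ libraries, 101 and 87.8 in PLZF- libraries); neither passed (adjusted p = 0.64 and 0.49 by limma).

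Fas itself had 0.619 and 6.14 normalized counts in the PLZF+ libraries, against 33.7 and 11.0 in the PLZF- libraries (log2 fold change -2.58, adjusted p = 0.30 by limma), a low level in all 4. The other tested receptors did not pass: Tnfrsf10b, a TRAIL receptor (-0.44), Tnfrsf11a, which encodes RANK (-0.19, and 0.22 without A7), Tnfrsf14, which encodes HVEM (-0.036, and above 0 in 4 settings), and Tnfrsf22, a TRAIL decoy of the mouse (-2.42). Ltbr, Cd40, Tnfrsf8, Tnfrsf11b and Tnfrsf23 were listed at 0 in all 4 libraries. Thus the receptors of lymphotoxin β, of the CD40 and CD30 ligands, and the RANKL decoy osteoprotegerin were not detected at this depth.

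The superfamily has other ligands, and of 7 listed loci 1 reached the filter, Tnfsf4, which was not called by limma or voom and lay under 0.05 by its unadjusted p. Cd70 and Eda were listed at 0 in all 4 libraries. The locus of Tnfsf12 and Tnfsf13, Tnfsf13b, Tnfsf15 and Tnfsf18 had at most 3.35 normalized counts.

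Of 8 loci for the shedding and processing of ligands 6 were tested, and 1 rose and 0 fell by limma and by voom (3 and 0 at an unadjusted p under 0.05). Of all 8978 tested genes, 2.52% rose and 4.72% fell by limma, and 254 rose and 401 fell by voom. No such share was taken at an unadjusted p. The Sppl2b locus, for an intramembrane protease that can cut TNF, had 120 and 112 normalized counts in the PLZF+ libraries, against 35.4 and 26.8 in the PLZF- libraries (log2 fold change 1.87 ± 0.44, adjusted p = 0.019 by limma). Of 12 loci for proteins that bind or cut ligand mRNA 12 were tested, and 0 rose and 2 fell by limma and by voom (0 and 3 at an unadjusted p under 0.05). By limma 4.72% of all tested genes fell. Zfp36, which encodes tristetraprolin, a protein that speeds the decay of Tnf mRNA, had 27.3 and 11.2 normalized counts in the PLZF+ libraries, against 91.1 and 95.1 in the PLZF- libraries (log2 fold change -2.34 ± 0.56, adjusted p = 0.021 by limma). Its relative Zfp36l2 had 67.8 and 83.3 in the PLZF+ libraries, against 158 and 219 in the PLZF- libraries (log2 fold change -1.30 ± 0.35, adjusted p = 0.038 by limma). A second Zfp36l2 entry with the same coordinates, listed with Thada, had 104 and 135 in PLZF+ libraries, against 137 and 164 in PLZF- libraries. That entry was not called (log2 fold change -0.34, adjusted p = 0.61 by limma). Each of these 3 calls was lost without B7 and without a filter (adjusted p = 0.25, 0.25 and 0.19 without B7, for Sppl2b, Zfp36 and Zfp36l2 in that order). That of Sppl2b was also lost without A7 (0.27), that of Zfp36 without A6 (0.064) or B6 (0.070), and that of Zfp36l2 without A7 (0.31) or B6 (0.12). Without the trend and robust steps none of the 3 passed (0.11, 0.14 and 0.22 for Sppl2b, Zfp36 and Zfp36l2). Zfp36l2 was not called under equal-total scaling (0.066) or on FPKM (0.057), nor Zfp36 at a minimum mean of 50 (0.05003).

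Among 24 listed transcription factors known to act on ligand genes 22 were tested, with a median log2 fold change (PLZF+ over PLZF-) of -0.73. Of them 4 fell, where 4.72% of all tested genes fell, and 1 other called locus of the list is not reported here. Nfkb1, an NF-κB subunit, showed 487 and 352 normalized counts in the PLZF+ libraries, against 1481 and 973 in the PLZF- libraries, and the locus of Rel, another subunit, had 301 and 216 in the PLZF+ libraries, against 1235 and 740 in the PLZF- libraries (log2 fold changes -1.53 and -1.90, adjusted p = 0.0016 and 0.00067 by limma). Stat4, of IL-12 signalling, had 525 and 509 in the PLZF+ libraries, against 1741 and 1253 in the PLZF- libraries, and Tbx21, which encodes T-bet, had 21.7 and 36.8 in the PLZF+ libraries, against 97.8 and 165 in the PLZF- libraries (log2 fold changes -1.51 and -2.13, adjusted p = 0.00049 and 0.015 by limma). The call of Tbx21 was lost without A7 (adjusted p = 0.17), without B7 (0.073) or without B6 (0.086), and that of Nfkb1 without B7 (0.095). Without the trend and robust steps none of these 4 passed (adjusted p = 0.14 to 0.19).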

How the data were processed

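Per the submitters' processing notes, the tools were HISAT 0.1.6, SAMtools 1.2, Cufflinks 1.2 and Cuffdiff, on the mm10 build. The sources used here give no gene annotation and no strand setting. The authors deposited a table of normalized counts, a signal that Cuffnorm makes from estimated counts by scaling each library, and not raw counts. The authors also deposited a table of FPKM (fragments per length and depth) and a Cuffdiff table of p-values and q-values by locus. It names the subsets only q1 and q2, so the direction of its calls was read from the group means of the FPKM table.

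Of 46799 loci, 1232 without a name were left out, with 1.82% to 3.22% of the total in each library. Symbols were spelled as in GENCODE M21, rows of one symbol were summed, and a locus with several symbols is given with its others or called a locus. Rn45s, at 0 in B7 and 26.8% to 33.2% of the total in the others, was left out of totals. The low values are steps of 1 read (dividing by it gave whole numbers, to 0.05, for 92.5% to 94.3% of values), from which reads were estimated. Genes with a mean of at least 10 were tested (8978) with limma 3.58.1 in R 4.3.3, with trend and robust moderation, two-sided, on log2(normalized count + 1), Benjamini-Hochberg adjusted at 0.05. Of these, 226 rose and 424 fell. An exact permutation test of 2 against 2 libraries cannot go below p = 0.333, so none was used. Libraries are pools, so p-values measure the spread between pools. Floors (3 reads per library) and 95% exact intervals of read ratios cover counting error only.

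The ligands, the other gene lists and the marker lists were chosen with earlier results of these data known. All 10 ligands, all other ligands and all receptors are named, with up to 4 called genes of each other list and direction. Bag6, the Ddx39b locus, the second Zfp36l2 entry and the CD3 chains were named after their values were seen. So were Ncr1, IGJ, Cd79b, Il7r, Kit and the αβ T cell markers. A few listed items, among them 1 called transcription factor locus, are not reported here. Alternatives were pseudocounts of 0.25 and 4, a minimum mean of 50 or none, scaling by median ratio or equal totals, FPKM, rows not summed, voom on the estimated reads, no trend or robust step, the letter of the column code as a term, and each library left out. Promoters are from RefSeq (GRCm38.p6). Python 3.11.15 was used with pandas 2.3.3 and numpy 2.4.6 for tables, scipy 1.17.1 for intervals and matplotlib 3.10.9 for figures.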

Additional observations from a re-analysis of the deposited data

How the results depend on the processing

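No paired analysis was possible because the columns carry no replicate number; the fit with the column letter as a term takes A and B as blocks, which is not a pairing that any label states. Each fit without 1 library assumes that the lone library of a subset varies like the other subset. The number of genes that rose (226) was 110 without a filter, 26 without the trend and robust steps, 415 with the column letter and 34 to 444 with 1 library left out (41 without A7, 34 without B7, 444 without B6). The number that fell (424) was 254, 150, 647 and 214 to 420 in the same order. Of the ligands, 2 rose, but 1 rose at a pseudocount of 0.25 or on FPKM, 0 without a filter, without the trend and robust steps or with CD3 scaling, and 0 to 2 with 1 library left out (0 without A7 or B7, 1 without A6). The number of ligands that fell (1) was 2 on FPKM and with the column letter, and 6 with CD3 scaling. The adjusted p of Ltb was 0.053 at a pseudocount of 0.25, 0.138 without a filter, 0.057 on FPKM and 0.31 without the trend and robust steps, and that of Tnfsf11 was 0.051 without a filter and 0.16 without the trend and robust steps; these are from limma. Tnfsf10 was called with the column letter (0.030). With CD3 scaling, where the median of all tested genes was -1.34 and 36.2% of them fell, Ltb turned to -0.27 and Tnf to -0.070. With 1 library left out Tnfrsf1b ranged from -0.057 (without A7) to 0.46, Tnfrsf11a from -1.94 to 0.22 (without A7) and Tnfrsf14 from -0.91 to 0.84 (0.19 without A7, 0.84 without B6), and Tnfrsf14 turned to 0.067 with equal-total scaling and 0.65 on FPKM. The cause of these changes was not tested. Voom, a pseudocount of 4, median-ratio scaling, equal-total scaling and rows not summed changed no call of the 10 ligands. A minimum mean of 50 kept only Ltb, Tnfsf11, Fasl and Tnfsf14, with the same calls. At this depth Lta rests on 2 and 3 reads in the PLZF- libraries, and Tnfsf9 on 2 reads in B7.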
